A study of Mus musculus with 10 samples.

Results

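The genes described here were chosen for homologous recombination and the Fanconi anemia pathway in mouse T-cell acute lymphoblastic leukemia (T-ALL) with and without deletion of Sirt1, an NAD-dependent protein deacetylase. The choice was by symbol: the Fanconi genes Fanca to Fancm, further Rad genes, Xrcc1 to Xrcc6, and Brca1, Brca2, Palb2, Brip1, Atm, Atr, Atrip, Chek1, Chek2, Blm, Mre11a, Nbn and Bard1, each with at least 10 normalized counts in at least 5 of the 10 libraries. The symbols also take in Xrcc1, Xrcc4, Xrcc5 and Xrcc6, of other repair pathways, and Rad54l2, which is not known as a recombination gene. The rule found 39 genes among 13567 genes tested and 16865 genes in the table. A further symbol that fits the name rule, Fancd2os, was under the minimum, at 0 to 2.95 normalized counts in Sirt1 deleted libraries and 0.785 to 7.23 in Control libraries.

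T-ALLs carrying a conditional Sirt1 knockout allele were injected intravenously into sub-lethally irradiated mice, and RNA was sequenced from spleen cell suspensions after red cell lysis. The Sirt1 deleted group (n = 5) received 3 mg of tamoxifen per mouse in corn oil by intraperitoneal injection, and the Control group (n = 5) received corn oil alone. Tamoxifen and deletion therefore came together, and their effects cannot be told apart. The labels give C57BL/6 mice, name no Cre driver, no sequencing batch and no recipient-to-leukemia assignment, and do not say whether replicates came from separate leukemias, so p-values measure only the spread between these samples. In bulk spleen RNA, fewer cells of a type and less RNA per cell cannot be told apart.

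Homologous recombination repairs DNA double-strand breaks by copying the sister chromatid. The MRN complex (Mre11a, Rad50, Nbn) senses and trims the break and activates the kinase ATM, BRCA1 promotes resection of the ends, and BRCA2 with PALB2 then prepares the single-stranded DNA for strand exchange. The Fanconi pathway detects crosslinks between the DNA strands, marks FANCD2 and FANCI with ubiquitin and hands the lesion to the same recombination proteins. Dividing cells also use these proteins to protect stalled replication forks.

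Sirt1 itself had 922, 824, 1071, 1061 and 710 normalized counts in Sirt1 deleted libraries 1 to 5, against 1324, 1348, 1174, 1192 and 1126 in Control libraries 1 to 5. Every Sirt1 deleted library was below every Control library, and the mean was 74.4% of Control (log2 difference -0.44 ± 0.107 SE, exact two-sided permutation p = 0.00794, the smallest this design allows). After the correction for transcript length and GC content described below, its log2 difference was -0.25 (limma adjusted p = 0.0284). The table sums lay between 33600000 and 34800000 per library, and the spacing of low values gave an estimated 21200000 to 44300000 reads per library. At that depth the fewest reads behind a member value were about 171, for Fancf (a counting error of 7.65%). The median over the member values was about 1374 reads (2.70%). These percentages cover counting error only. Summed T cell and T-ALL markers (20 genes) reached 343440 to 395560 in Sirt1 deleted libraries, against 354850 to 382360 in Control libraries, and 0 of these markers was at 0 in all libraries. By limma 3 of the 20 were higher (Ptcra at 0.36, Cd2 at 0.29 and Cd3g at 0.27) and 2 lower (Rag1 at -0.66 and Notch1 at -0.32). These were 15% higher, against 14.5% of all genes, and 10% lower, against 17.5%. After correction (described below) 0 were higher and Rag1 alone was lower (-0.33).

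Of the 39 genes, 13 passed an adjusted p of 0.05 in limma's test (33.3%), where 32% of all genes tested did. The 3 that were higher in Sirt1 deleted spleens were Xrcc3, Rad52 and Fance (7.69%, against 14.5% of all genes). The 10 that were lower were Rad54l2, Brca1, Atm, Fancm, Rad54l, Fancd2, Chek2, Brip1, Atr and Brca2 (25.6%, against 17.5% of all genes). The median log2 difference of the 39 was -0.11, against 0.00 over all genes tested, and the values ran from -0.71 to 0.26. The groups did not overlap for 3 genes, Brca1, Xrcc3 and Xrcc4 (7.69%, against 16.5% of all genes). The share called was close to that of all genes, with more of the calls downward. The counts fell when any of several libraries was left out by itself, for these genes and for all genes. The lower calls numbered 6 without Sirt1 deleted library 5 (1936 of all genes, against 2371 with every library), 4 without Sirt1 deleted library 2 (1568 of all genes) and 5 without Control library 4 (1786 of all genes). They numbered 3 without Control library 2 (1278 of all genes) and 3 without Control library 1 (1332 of all genes). The higher calls numbered 1 without Sirt1 deleted library 2 (1143 of all genes, against 1973 with every library) and 1 without Control library 1 (1003 of all genes). Without Sirt1 deleted library 5, Control library 1 and Control library 2 together, limma called 0 members and, over all genes, 1 higher and 2 lower. At an unadjusted p under 0.05, 2 members were higher and 3 lower, with no all-gene count at that threshold given beside them.

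Differences across the transcriptome followed transcript length in these libraries, so the members' values are also given after correction of each library for length and GC content (called corrected). After correction 8 of the 39 were called (20.5%, against 14.7% of the genes with a length), 5 higher (against 8.55%) and 3 lower (against 6.12%), and the median log2 difference was 0.02. Rad54l2, Rad54l and Chek2 stayed lower and Xrcc3 stayed higher. The direction differed between the scales for 14 of the 39 genes. Brca2 was called in the opposite direction, 8 genes lost their call, and Fancl, Mre11a and Rad50 were called higher only on the corrected scale.

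**Figure D1:**
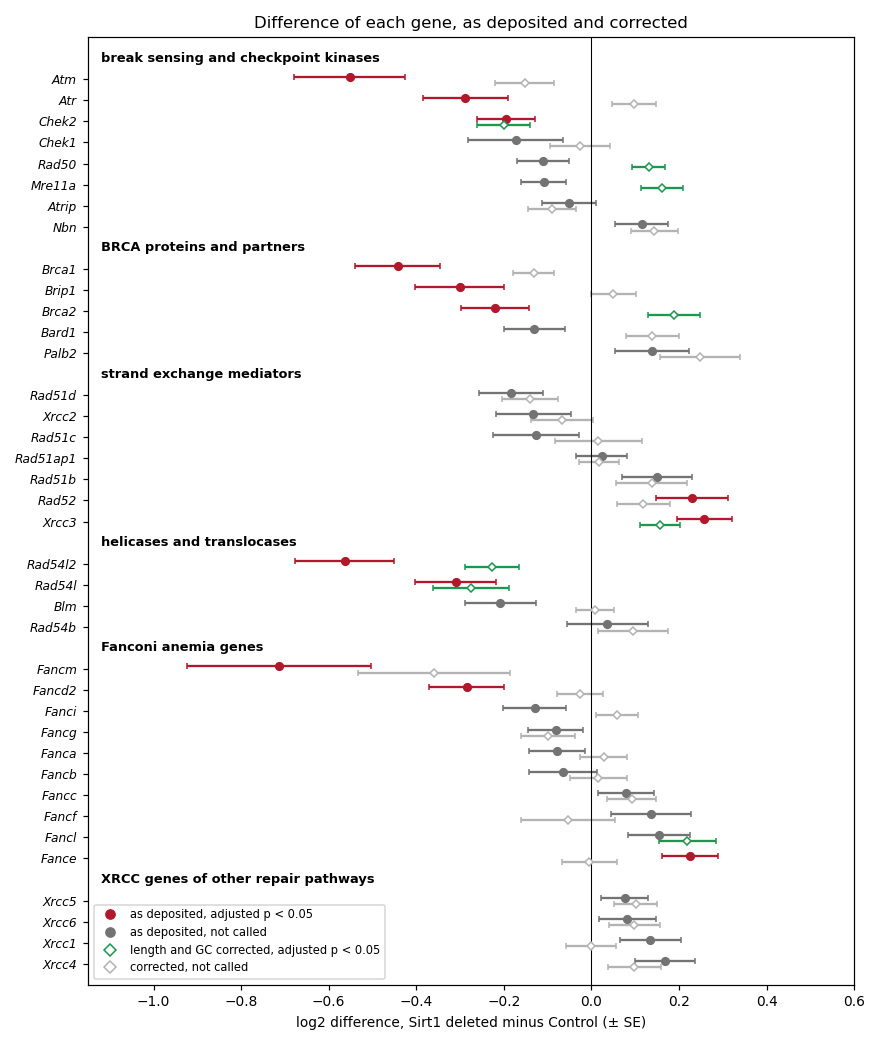
Log2 difference (Sirt1 deleted minus Control) of 38 of the 39 genes, grouped by role, with bars of 1 SE. Circles are the deposited values and diamonds the values corrected for length and GC content, and coloured symbols passed an adjusted p of 0.05 in limma's test. The deposited values run from -0.71 (Fancm) to 0.26 (Xrcc3).

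Upstream sequences are shown for the genes called in the same direction on both scales that have a RefSeq entry, Chek2, Rad54l and Xrcc3. Brca1, called as deposited and without overlap between groups, is also shown. Xrcc4, without overlap but not called, is not shown. Each run is the 250 bases before the RefSeq start on GRCm38.p6, written 5′ to 3′ on the gene's strand. The positions are chr5:110839733-110839982 (plus strand) for Chek2, chr4:116123690-116123939 (minus strand) for Rad54l, chr12:111813880-111814129 (minus strand) for Xrcc3 and chr11:101551956-101552205 (minus strand) for Brca1. Capitals mark CCAAT or its complement ATTGG, and E2F letters, which occur here as GCGGGAAA, the complement of TTTCCCGC, in Chek2.
Chek2: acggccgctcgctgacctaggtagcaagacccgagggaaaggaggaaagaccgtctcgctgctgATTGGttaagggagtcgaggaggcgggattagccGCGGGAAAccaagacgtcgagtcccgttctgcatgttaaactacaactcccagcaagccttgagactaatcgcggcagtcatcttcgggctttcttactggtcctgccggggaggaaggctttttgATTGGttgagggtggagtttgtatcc
Rad54l: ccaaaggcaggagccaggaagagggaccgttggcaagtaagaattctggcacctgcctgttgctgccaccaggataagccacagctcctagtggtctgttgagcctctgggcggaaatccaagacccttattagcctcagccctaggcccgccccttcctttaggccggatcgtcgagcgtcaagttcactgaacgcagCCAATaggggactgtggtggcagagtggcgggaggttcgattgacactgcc
Xrcc3: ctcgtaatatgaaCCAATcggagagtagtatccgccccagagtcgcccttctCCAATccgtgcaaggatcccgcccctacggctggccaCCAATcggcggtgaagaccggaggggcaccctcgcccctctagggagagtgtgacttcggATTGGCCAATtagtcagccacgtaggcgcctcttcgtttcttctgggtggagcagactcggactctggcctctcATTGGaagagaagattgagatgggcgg
Brca1: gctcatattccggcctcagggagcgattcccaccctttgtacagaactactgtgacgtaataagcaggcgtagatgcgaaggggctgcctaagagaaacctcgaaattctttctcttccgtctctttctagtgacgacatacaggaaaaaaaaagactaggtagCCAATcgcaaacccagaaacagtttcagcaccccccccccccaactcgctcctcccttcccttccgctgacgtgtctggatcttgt
Xrcc3 held 6 CCAAT matches, Chek2 2 and an E2F match, and Rad54l and Brca1 1 CCAAT match each. Xrcc4, not shown, held 0 CCAAT and 0 E2F matches. Of the 39 genes 31 had an entry, and CCAAT was found on either strand in 19 of them (61.3%), against 36.5% of 9933 promoters. E2F letters (TTTCCCGC, TTTCGCGC, TTTGCCGC or TTTGGCGC) were in 5 (16.1%: Bard1, Brca2, Chek2, Fancg and Xrcc6), against 3.45%. The CHR letters TTTGAA were in 1 (3.23%, Bard1), against 10.5%. Matches of different motifs did not overlap in these 31 windows. These matches describe letters and were not tested as binding sites.

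Among 8 genes of break sensing and checkpoint signalling, Atm, Atr and Chek2 were lower in Sirt1 deleted spleens (37.5%, against 17.5% of all genes). Of the rest 0 were higher and 5 were not called, and the median of the 8 was -0.14 (0.04 corrected). Atm, the kinase activated at double-strand breaks (chr9:53439149-53536740, minus strand), had 3213, 2428, 2613, 2490 and 1916 normalized counts in Sirt1 deleted libraries 1 to 5, against 4053, 4504, 3432, 3356 and 3134 in Control libraries 1 to 5. Sirt1 deleted library 1 alone reached into the Control range. The log2 difference was -0.55 ± 0.126 (SE, limma adjusted p = 0.0105), and -0.15 after correction (adjusted p = 0.137). Atr, the kinase activated by single-stranded DNA at stalled forks (chr9:95857597-95951781, plus strand), had 1945, 1596, 2098, 1866 and 1533 in Sirt1 deleted libraries, against 2386, 2478, 2001, 2245 and 1903 in Control libraries. The groups overlapped, with 3 Sirt1 deleted libraries under all Control libraries. Its log2 difference of -0.29 ± 0.0978 (limma adjusted p = 0.0395) was 0.10 after correction (adjusted p = 0.193).

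Chek2, the checkpoint kinase downstream of ATM (chr5:110839979-110874145, plus strand), kept its difference on both scales. It had 834, 783, 842, 915 and 778 normalized counts in Sirt1 deleted libraries, against 996, 999, 896, 962 and 897 in Control libraries. All Sirt1 deleted libraries other than library 4 were under the Control range. The fitted log2 difference was -0.19 ± 0.0654 (limma adjusted p = 0.0378), and -0.20 after correction (adjusted p = 0.0438). Its transcript has 2276 bases, shorter than the median of the 39 genes (3296 bases). Chek1, the kinase downstream of ATR, had 1843, 1583, 1822, 1894 and 1259 in Sirt1 deleted libraries, against 1994, 2036, 1663, 2011 and 1700 in Control libraries, and was not called (-0.17 ± 0.108, limma adjusted p = 0.229, and -0.03 corrected). Its groups overlapped widely, with Sirt1 deleted library 5 the lowest of all.

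The MRN genes did not pass on the deposited scale. Mre11a, the nuclease, had a log2 difference of -0.11 (2147 ± 104 in Sirt1 deleted and 2315 ± 85.1 in Control libraries, SD, n = 5 each) and Rad50, the ATPase, one of -0.11 (2932 ± 146 in Sirt1 deleted and 3168 ± 219 in Control). Nbn, the subunit that recruits ATM, was at 0.11 (1609 ± 87.8 in Sirt1 deleted and 1486 ± 87.3 in Control). After correction Mre11a (0.16, limma adjusted p = 0.0419) and Rad50 (0.13, adjusted p = 0.0352) were called higher, and Nbn was at 0.14 (adjusted p = 0.081). Atrip, the partner of ATR, was at -0.05 (-0.09 corrected).

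Among the 5 genes of the BRCA proteins and their partners, Brca1, Brip1 and Brca2 were lower (60%, against 17.5% of all genes). None was higher, Bard1 and Palb2 were not called, and the median was -0.22 (0.14 corrected). Brca1, whose upstream sequence is shown above (chr11:101488764-101551955, minus strand), had 1874, 1764, 1940, 1966 and 1399 normalized counts in Sirt1 deleted libraries, against 2621, 2719, 2273, 2384 and 2120 in Control libraries. Every Sirt1 deleted library was under every Control library, and the mean was 73.8% of Control. The log2 difference was -0.44 ± 0.0967 (SE, limma adjusted p = 0.00927), and -0.13 after correction (adjusted p = 0.0747). Brip1, the helicase that binds BRCA1 (chr11:86058138-86201193, minus strand), had 1023, 965, 1128, 1102 and 813 in Sirt1 deleted libraries, against 1255, 1434, 1195, 1286 and 1027 in Control libraries. Control library 5 lay within the Sirt1 deleted range. Its log2 difference of -0.30 ± 0.102 (limma adjusted p = 0.0386) was 0.05 after correction (adjusted p = 0.535).

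Brca2, which acts with PALB2 in strand exchange (chr5:150522630-150570329, plus strand), has the longest transcript of the 39, at 10724 bases. It had 2226, 2031, 2597, 2265 and 2074 normalized counts in Sirt1 deleted libraries, against 2711, 2945, 2524, 2499 and 2342 in Control libraries. Sirt1 deleted library 3 exceeded 3 Control libraries, and the other 4 were under all of them. The fitted log2 difference was -0.22 ± 0.0778 (limma adjusted p = 0.0466) as deposited and 0.19 after correction (adjusted p = 0.0486), so its direction depends on the correction. Bard1, the partner of BRCA1 in its ubiquitin ligase, was at -0.13 (limma adjusted p = 0.161) and at 0.14 corrected (adjusted p = 0.127), on the other side of 0. Palb2, which bridges BRCA1 and BRCA2, had 747, 780, 663, 602 and 790 in Sirt1 deleted libraries, against 636, 670, 658, 688 and 589 in Control libraries. Its groups overlapped, and neither scale called it (0.14, adjusted p = 0.217, and 0.25 corrected, adjusted p = 0.0821).

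**Figure D2:**
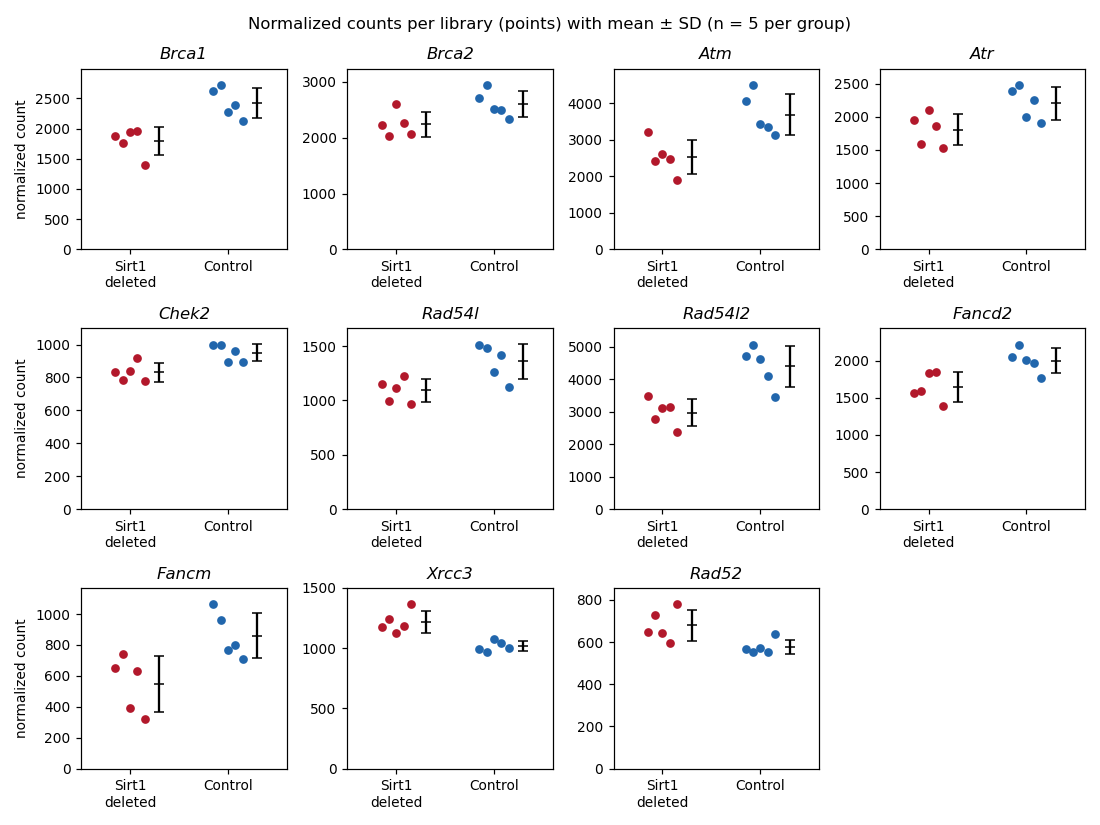
Normalized counts of 11 of the genes in each library, Sirt1 deleted left and Control right, with the group mean and SD (n = 5 each). Brca1 and Xrcc3 show no overlap between groups, with Brca1 at 1399 to 1966 in Sirt1 deleted and 2120 to 2719 in Control libraries.

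Among the 8 genes of strand exchange and its mediators, Xrcc3 and Rad52 were higher (25%, against 14.5% of all genes). Of the rest 0 were lower and 6 were not called, and the median of the 8 was -0.05 (0.02 corrected). Xrcc3, a mediator of strand exchange (chr12:111803192-111813873, minus strand), had 1173, 1243, 1127, 1183 and 1365 in Sirt1 deleted libraries, against 990, 968, 1079, 1043 and 1004 in Control libraries. All 5 Sirt1 deleted libraries were above all Control libraries. The log2 difference was 0.26 ± 0.0637 (limma adjusted p = 0.0128), and 0.16 after correction (adjusted p = 0.0388).

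Rad52, a protein that anneals single-stranded DNA (chr6:119902698-119922828, plus strand), had 650, 728, 641, 597 and 780 normalized counts in Sirt1 deleted libraries, against 569, 554, 570, 555 and 638 in Control libraries. Sirt1 deleted library 4 lay under Control library 5, and the other 4 were above all Control libraries. The log2 difference of 0.23 ± 0.0812 (limma adjusted p = 0.0459) was 0.12 after correction (adjusted p = 0.196). Xrcc2, another mediator, was at -0.13 and was not called (limma adjusted p = 0.247, and -0.07 corrected).

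Among the 4 helicases and translocases, Rad54l2 and Rad54l were lower on both scales (50%, against 17.5% of all genes as deposited and 6.12% corrected). Blm and Rad54b were not called, and the median was -0.26 (-0.11 corrected). Rad54l, a DNA translocase of strand invasion (chr4:116094264-116123690, minus strand), had 1153, 998, 1115, 1224 and 971 normalized counts in Sirt1 deleted libraries, against 1513, 1481, 1257, 1416 and 1122 in Control libraries. Control library 5 overlapped the Sirt1 deleted range. The fitted log2 difference was -0.31 ± 0.0925 (limma adjusted p = 0.0245), and -0.27 after correction (adjusted p = 0.0491). Rad54l2, a helicase-like protein that binds the androgen receptor (chr9:106688082-106789194, minus strand), had 3478, 2774, 3111, 3130 and 2363 in Sirt1 deleted libraries, against 4717, 5063, 4611, 4108 and 3459 in Control libraries. Sirt1 deleted library 1 was just above Control library 5, and the others were under the Control range. It had the smallest adjusted p of the 39 (log2 difference -0.56 ± 0.113, limma adjusted p = 0.00855, and -0.23 corrected, adjusted p = 0.028). Blm, the helicase mutated in Bloom syndrome, was at -0.21 (limma adjusted p = 0.0651) and at 0.01 corrected, and Rad54b was at 0.04 (0.09 corrected).

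Among the 10 Fanconi anemia genes, Fance was higher (10%, against 14.5% of all genes), and Fancm and Fancd2 were lower (20%, against 17.5%). The other 7 were not called, and the median of the 10 was -0.07 (0.01 corrected). Fancm, the DNA translocase that anchors the core complex (chr12:65075603-65132058, plus strand), had the largest log2 difference of the 39. It had 648, 741, 390, 629 and 318 normalized counts in Sirt1 deleted libraries, against 1064, 963, 766, 801 and 709 in Control libraries. Sirt1 deleted libraries 3 and 5 were far under the rest, and library 2 alone reached the Control range. The log2 difference was -0.71 ± 0.209 (limma adjusted p = 0.0231), and -0.36 after correction (adjusted p = 0.169). Fancd2, the protein that receives the ubiquitin mark (chr6:113531682-113597017, plus strand), had 1568, 1595, 1843, 1856 and 1384 in Sirt1 deleted libraries, against 2051, 2220, 2014, 1968 and 1764 in Control libraries. Control library 5 lay within the Sirt1 deleted range. Its log2 difference of -0.29 ± 0.0862 (limma adjusted p = 0.0257) was -0.03 after correction (adjusted p = 0.763).

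Fance, the core-complex subunit that contacts FANCD2 (chr17:28313519-28326572, plus strand), had 1354, 1452, 1225, 1337 and 1526 normalized counts in Sirt1 deleted libraries, against 1163, 1246, 1148, 1172 and 1154 in Control libraries. All Sirt1 deleted libraries other than library 3 were above the Control range. The log2 difference of 0.23 ± 0.0646 (limma adjusted p = 0.0213) was 0.00 after correction (adjusted p = 0.971). Fanca, a core-complex subunit, had 2099, 1886, 1930, 1870 and 1914 in Sirt1 deleted libraries, against 2097, 2044, 2160, 2175 and 1782 in Control libraries, and was not called (-0.08, limma adjusted p = 0.356, and 0.03 corrected). Its groups overlapped, with Control library 5 the lowest of all. Fancl, the ubiquitin ligase of the core complex, was at 0.16 (limma adjusted p = 0.106), and was called higher after correction (0.22, adjusted p = 0.04). Fanci, the partner of FANCD2, was at -0.13 (0.06 corrected). Of the other core-complex subunits, Fancf was at 0.14 (-0.05 corrected), Fancc at 0.08 (0.09 corrected), Fancb at -0.07 (0.02 corrected) and Fancg at -0.08 (-0.10 corrected), all without a call.

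The 4 XRCC genes of other pathways were not called by limma in either direction, and 1 of them, Xrcc4, had an unadjusted p under 0.05. Xrcc4, the ligase cofactor of end joining, had 428, 435, 462, 435 and 479 normalized counts in Sirt1 deleted libraries, against 386, 417, 377, 422 and 390 in Control libraries. All 5 Sirt1 deleted libraries were above all Control libraries, by a log2 difference of 0.17 (limma adjusted p = 0.0753, and 0.10 corrected). Xrcc1, a scaffold of single-strand break repair, was at 0.13 (0.00 corrected), and Xrcc5 and Xrcc6, the Ku subunits that hold broken ends, were at 0.08 each (0.10 each corrected). Per kilobase of the longest transcript, Xrcc6 was the most abundant, at 10552 normalized counts in Sirt1 deleted and 9955 in Control libraries. Fancm stood at 70.1 per kilobase in Sirt1 deleted libraries, against 111 in Control libraries.

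Most of the lower members had long transcripts. Of the 11 genes with a transcript over 5000 bases, 8 were lower and 0 higher, with a median log2 difference of -0.29. Over all 2567 genes of that length 51.8% were lower and 1.71% higher, with a median of -0.28. Of the 28 shorter members, 3 were higher (10.7%, against 18.2% of all 9908 shorter genes). The 2 that were lower were Chek2 and Rad54l (7.14%, against 9.93%). The median was 0.03 (0.05 over all shorter genes). Across the 39 genes Spearman's rho between the log2 difference and length was -0.80, against -0.61 across 12475 genes. After correction these were -0.12 and -0.01. The correction subtracts each library's fit on length over these 12475 genes, so the value near 0 across them follows from it. Genes share the libraries and are not independent replicates.

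**Figure D3:**
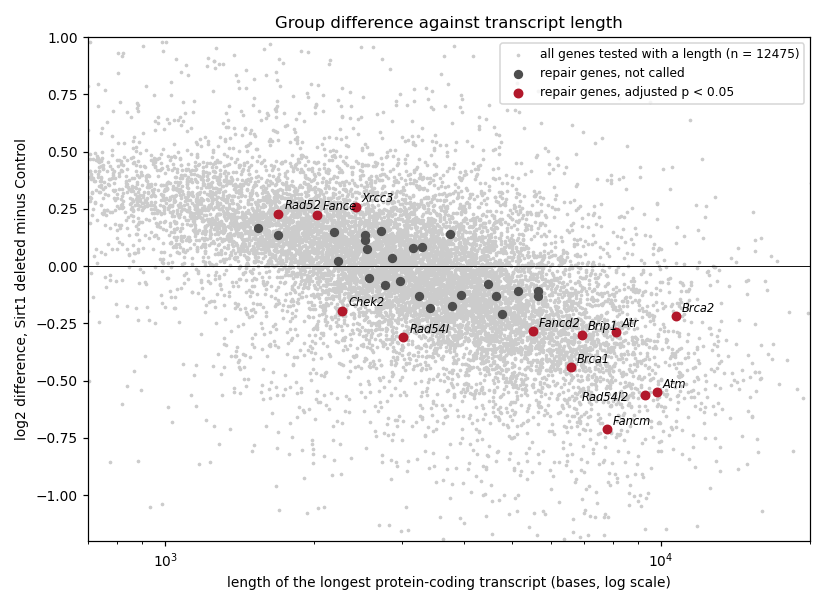
Log2 difference (Sirt1 deleted minus Control) against length of the longest protein-coding transcript in bases (log axis), with all genes with a length in light grey, the called members in red and the other members in dark grey (38 of the 39 members are drawn, and genes beyond the axes are not drawn). The 11 members over 5000 bases all lie under 0, with a median of -0.29.

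The slope of log2 values on log2 length was -0.0251, -0.116, -0.0639, -0.0458 and -0.24 in Sirt1 deleted libraries 1 to 5, against 0.144, 0.161, 0.0973, 0.0851 and 0.00348 in Control libraries 1 to 5. The groups did not overlap in this slope. With the slope as a covariate limma called 0 members and 0 of all genes tested. At an unadjusted p under 0.05, 2 members were higher and 0 lower, and the median log2 difference was 0.0486. The all-gene count at that unadjusted threshold is not given here. Sirt1 deleted library 1 and Control library 5 had the flattest slopes of their groups. Between those 2 libraries, which give no replicate check, 6 of the 10 lower members were lower in the Sirt1 deleted library and 4 were higher, at ratios from 0.884 (Brca1) to 1.03 (Rad54l). The 3 higher members were all higher there, at ratios of 1.02 (Rad52) to 1.17 (Fance). Atm was 3213 in Sirt1 deleted and 3134 in Control, against group means of 2532 in Sirt1 deleted and 3696 in Control libraries.

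**Figure D4:**
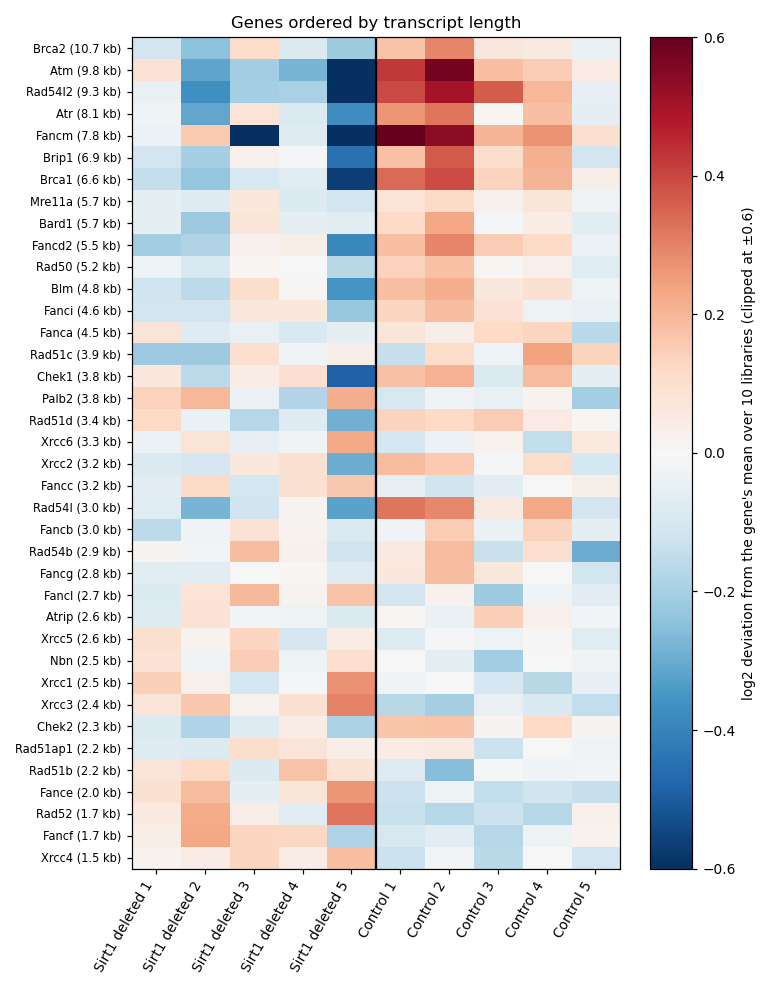
Log2 deviation of 38 of the 39 genes from its mean over the 10 libraries, Sirt1 deleted libraries left and Control libraries right, with the longest transcript at the top. Over all 39 genes, Sirt1 deleted library 5 held the lowest value of 19 and Control library 2 the highest of 18.

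Of 52 other recombination and Fanconi genes tested, 11 were higher (21.2%, against 14.5% of all genes) and 8 lower (15.4%, against 17.5%), with a median of 0.02. Higher genes included Rpa3, a subunit of the single-strand binding complex (0.39, limma adjusted p = 0.00797), Swi5, a recombination accessory factor (0.38), and Sem1, a BRCA2 partner (0.36). Lower genes included the junction resolvase Gen1 (-0.50, limma adjusted p = 0.0089), the translesion polymerase subunit Rev3l (-0.45) and the helicase Wrn (-0.35). After correction 7 were called higher and 2 lower (17.3% called, against 14.7% of the genes with a length). Of 35 checkpoint and break response genes, 3 were higher (8.57%, against 14.5% of all genes), namely H2afx at 0.58, Rad9a at 0.19 and Tipin at 0.19. A further 11 were lower (31.4%, against 17.5%), among them Trp53bp1 (-0.23), Rif1 (-0.52) and Rad18 (-0.44). After correction these counts were 3 and 1 (11.4% called, against 14.7% of the genes with a length).

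Of 45 replication and cell cycle genes, 10 were higher (22.2%, against 14.5% of all genes), among them the licensing factor Cdt1 (0.22), Gins1 (0.32) and Cdk1 (0.23). A further 6 were lower (13.3%, against 17.5%), among them Pola1 (-0.40), Ccne2 (-0.76) and Cenpf (-0.21). The median was 0.02, and 4 higher and 1 lower passed after correction (11.1% called, against 14.7% of the genes with a length). The list's mean log2 level was 12.504 ± 0.0622 in Sirt1 deleted and 12.507 ± 0.0374 in Control libraries (SD, n = 5 each). With that mean as a covariate, 3 members were higher and 11 lower (2130 and 2561 of all genes). The mean was nearly equal in the groups, so that fit could hardly change the differences.

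Markers of other cell types that a spleen can hold were counted in the same fit. Of 14 macrophage markers tested 8 were lower (57.1%, against 17.5% of all genes) and 0 higher. Their sum was 7083 to 11002 in Sirt1 deleted libraries, against 11706 to 17186 in Control libraries. After correction 7 of the 14 were lower (50%, against 6.12% of the genes with a length). Of 12 B cell markers 3 were higher (25%, against 14.5% of all genes) and 1 lower (8.33%, against 17.5%). Their sums were 371 to 594 in Sirt1 deleted and 342 to 440 in Control libraries. After correction 2 were higher (16.7%, against 8.55%) and 0 lower. Of 14 erythroid markers 4 were lower (28.6%, against 17.5% of all genes), with sums of 229460 to 503640 in Sirt1 deleted and 453730 to 577040 in Control libraries. After correction 7 of the 13 with a length were lower (53.8%, against 6.12%). Of 13 neutrophil markers 2 were higher (2286 to 9186 in Sirt1 deleted and 1798 to 4615 in Control libraries), a share of 15.4% against 14.5% of all genes, and 0 after correction. Of 3 NK cell markers limma called 0 (0 at an unadjusted p under 0.05). Of 4 stromal markers 1 was lower on either scale (25%, against 17.5% of all genes as deposited and 6.12% corrected). None of these lists had a marker in the table at 0 in all libraries. With the macrophage mean as a covariate limma called 0 members and 0 of all genes tested. That mean did not overlap between the groups (8.18 to 8.98 in Sirt1 deleted, 9.11 to 9.70 in Control libraries). A loss of calls in that fit therefore cannot tell the marker level from the group. At an unadjusted p under 0.05, 3 members were higher and 5 lower in that fit, with a median of -0.0346. The all-gene count at that unadjusted threshold is not given here. The part of these cell types in the member differences was not tested.

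The gene spans of 14 members overlap another annotated gene, and whether strand was used in counting is not stated. Atrip overlaps Trex1 and Rad54b overlaps Fsbp on the same strand, so their reads may be divided differently. Among the genes called on either scale Fancd2, Rad54l, Xrcc3, Mre11a and Fancl overlap a gene on the opposite strand, and their values are uncertain to that extent.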

How the data were processed

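The 10 strand-specific libraries came from leukemic spleens, 5 Sirt1 deleted and 5 Control. The submitters' processing notes name kallisto 0.44.0, DESeq without a version, and build mm10. What the authors deposited is a signal, 1 table of normalized counts. Which annotation and gene filter they used, and whether counting used strand, is not given in the sources used here. The values are not whole, and from 81.4% to 90.6% of the low values of a library lay within 0.1 of its step, so whole reads were not recovered and no count model was fitted.

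All 10 columns were used and 0 were left out. Genes with at least 10 normalized counts in at least 5 libraries were compared as log2(value + 1) by limma-trend (limma 3.58.1, R 4.3.3), Sirt1 deleted against Control, two-sided, with Benjamini-Hochberg adjustment over all 13567 genes tested and a threshold of 0.05. Positions came from GENCODE M21 (GRCm38), as did length and GC content, taken from each gene's longest coding transcript (12475 tested genes). For the corrected values, a library's deviations from gene means were regressed on splines of log2 length and of GC (natural, 5 degrees of freedom each) and the fitted part was subtracted. This also removes a true difference that follows length, and it over-corrects a gene that mainly expresses a short transcript. The limma comparison was tested on simulated data. Those data held no length or GC trend, so that test did not cover the correction. Other settings were other pseudocounts, filters, scalings and variance estimates, covariates and omission of libraries. Promoter sequences came from RefSeq (GRCm38.p6). The members and the gene lists were chosen with earlier results of these data known. Values per library are given for called members and for Brca1, Brca2, Atm, Atr, Chek1, Chek2, Palb2, Fancd2 and Fanca. From each further list, the 3 called genes with the smallest p in each direction are named. A member is counted in the totals and is not reported here by itself. Python 3.11.15, numpy 2.4.6, pandas 2.3.3, scipy 1.17.1 and matplotlib 3.10.9 were used.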

Additional observations from a re-analysis of the deposited data

Results flagged for a closer look

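A library stood apart from the other 4 of its group in 4 of the 80 sets of 5 values looked at, where chance gives about 1 in 20. Fanca was 2099 in Sirt1 deleted library 1, against 1870 to 1930 in the other Sirt1 deleted libraries, and this gene was not called. Fance was 1246 in Control library 2, with the other Control libraries between 1148 and 1172. Nbn was 1336 in Control library 3, with the others between 1487 and 1547. Rad52 was 638 in Control library 5, with the other Control libraries between 554 and 570, and it reached into the range of the Sirt1 deleted libraries, of which library 4 held 597.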

How the results depend on the processing

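Calls held under other pseudocounts, a minimum of 50, TMM scaling, robust and weighted variances and the cell cycle covariate (3 higher, 10 to 13 lower). They changed by at most 2 without a filter, with equal totals or with quantile scaling. All-gene counts are given above for the cell cycle covariate, where they also rose, and not for the other settings. These member counts therefore do not show a difference from all genes. The cell cycle mean was nearly equal in the groups (12.504 in Sirt1 deleted and 12.507 in Control), so that covariate could hardly change the calls. Corrected for length and GC content, 5 members were called higher and 3 lower (median log2 difference 0.0168), and the direction turned for 14 of the 39 members, of which 5 are given by library, Fance (-0.0044), Brip1 (0.0501), Atr (0.10), Brca2 (0.19) and Fanca (0.0277). With the length slope as a covariate, limma called 0 higher and 0 lower (2 and 0 at an unadjusted p under 0.05), the median was 0.0486, Sirt1 was at -0.000511, and, among the members given by library, the direction turned for Atm (0.0251), Fancm (0.0162), Rad54l (0.0486), Fancd2 (0.0397), Brip1 (0.13), Atr (0.11), Rad52 (-0.0525), Brca2 (0.0208), Chek1 (0.30) and Fanca (0.0437). Of the other members given by library, Brca1 was at -0.00128, Rad54l2 at -0.0261 and Chek2 at -0.0254 with that covariate. Xrcc3 was at 0.0886, Fance at 0.116 and Palb2 at 0.0457. The slopes of the groups do not overlap, and that fit called 0 of all genes tested. Without the 3 libraries of steepest slope, limma called 0 and 0 (2 higher and 3 lower unadjusted, 1 higher and 2 lower over all genes), the median was -0.0283 and Sirt1 was at -0.27 (exact permutation p = 0.0571, the smallest possible there). B cell markers as a covariate left 0 and 0 (1 higher and 5 lower unadjusted, 0 and 1 over all genes), and macrophage markers 0 and 0 (3 and 5 unadjusted, 0 and 0 over all genes), with a median of -0.0346 and Sirt1 at -0.33. The macrophage means of the groups do not overlap, so that fit cannot tell the marker level from the group. The unadjusted counts are for the members only, and the all-gene counts are at the adjusted threshold, so they cannot be compared. The cause was not tested.

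Leaving out each library in turn gave 1 to 4 higher, 3 to 12 lower, medians of -0.128 to -0.0737 and Sirt1 at -0.499 to -0.351. Over all genes the same fits gave 922 to 2158 higher and 1278 to 2554 lower. Lower calls were 6 without Sirt1 deleted library 5, 4 without Sirt1 deleted library 2, 5 without Control library 4, 3 without Control library 2 and 3 without Control library 1, and higher calls were 1 without Sirt1 deleted library 2 or Control library 1. No paired analysis was possible because the labels match no Sirt1 deleted sample with a Control sample. Depth limits Fancf most, with about 171 reads in the library where it had the fewest reads.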
